A study of Mus musculus with 8 samples.

Results

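The antioxidant and glutathione enzymes are the proteins that remove superoxide, hydrogen peroxide and lipid peroxides from a cell and that join glutathione to reactive compounds. Their genes were followed here in inguinal (ING) white adipose tissue (WAT), the subcutaneous fat of the groin, of mice at weaning and in young adulthood. Members were taken by name from the gene symbols of the deposited expression table. They comprised the glutathione transferases (Gst of the alpha, kappa, mu, omega, pi, theta and zeta classes, and the microsomal Mgst), the peroxiredoxins (Prdx), the glutathione peroxidases (Gpx), the superoxide dismutases (Sod), the thioredoxin reductases (Txnrd), Txn1, Txn2, Glrx, Glrx2, Gsr, Gclc, Gclm, Gss, Nqo1 and Hmox1. The rule uses no measured value, although it was written with earlier results of these data known, and 3 pseudogenes with matching names were left out. The table held 56 member genes, on 185 transcripts, among 38372 genes in all. Of these 56 genes, 50 had a mean of at least 1 FPKM over the 8 mice and were compared between the ages. FPKM is the number of sequenced fragments scaled to the length of the transcript and to all mapped fragments of the library, and the values of a gene's transcripts were summed.

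Poly(A)+ RNA was sequenced from whole ING WAT of C57BL/6j mice, 1 library per mouse. At postnatal day 21 (PN21) the 4 mice were m1, m49, m138 and m145, and at postnatal day 98 (PN98) they were m35, m106, m114 and m125. The labels name no transgene and no drug for any mouse. According to the study's methods the dams and the weaned mice were fed a purified AIN93G diet, and mice kept to PN98 were fed either AIN93M or a western style diet (WSD) for the later weeks. The methods also state that little food was given the night before dissection. The labels give neither the diet of the 4 PN98 mice nor the sex of any mouse. On either diet the PN98 mice differed in feed from the PN21 mice, so age and diet cannot be told apart.

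Superoxide dismutases turn superoxide into hydrogen peroxide. Catalase, the glutathione peroxidases and the peroxiredoxins then reduce peroxides, and the last of these draw electrons from thioredoxin or, for some, from glutathione. Glutathione is made by glutamate-cysteine ligase and glutathione synthetase, is recycled by glutathione reductase at the expense of NADPH, and is attached by the glutathione transferases to electrophiles such as the aldehydes that arise from oxidised lipids. In fat, these enzymes act beside a large store of triglyceride and, in brown or beige cells, beside dense mitochondria. Many of their genes are known targets of the transcription factor NRF2, which binds the antioxidant response element.

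The libraries differed in their levels of cell type markers, and the part of these in the members was not tested. The 7 mature adipocyte markers summed to 13237 to 25277 FPKM at PN21 and 36121 to 45881 FPKM at PN98, and all 7 were expressed in all 8 mice, so the labelled tissue showed its defining genes. The 5 erythroid markers summed to 8414 to 18111 FPKM at PN21 and 3674 to 5739 FPKM at PN98, the 6 lymphocyte markers to 208 to 529 FPKM at PN21 and 7.36 to 519 FPKM at PN98 and the 4 skeletal muscle markers found in the table to 6.24 to 249 FPKM at PN21 and 319.8 to 2077 FPKM at PN98. At PN98 mouse m35 held the highest lymphocyte sum. The 6 brown adipocyte markers summed to 3037 to 6458 FPKM at PN21 and 371 to 4228 FPKM at PN98, and the sums of the 5 macrophage, 3 endothelial and 5 progenitor markers overlapped between the ages. The 7 mammary and skin epithelium markers summed to at most 27.5 FPKM at PN21 and 1.16 FPKM at PN98. Transcripts of the Y-linked Ddx3y lay at 18.1 to 25.9 FPKM and Xist at under 1 FPKM in all 8 mice, although the methods describe that females were killed at PN21. The Y-linked Eif2s3y, Kdm5d and Uty were also expressed in all 8 mice. Xist lay at 0.247 to 0.832 FPKM at PN21 and at no more than 0.00704 FPKM at PN98. In whole tissue, fewer cells of a type and less RNA per cell cannot be told apart.

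Together the 56 members held 5001 to 9251 FPKM at PN21 and 6917 to 10482 FPKM at PN98, and the ages overlapped. Over the 8 mice, 16 members had a mean of at least 100 FPKM, 24 of 10 to under 100 FPKM, 10 of 1 to under 10 FPKM and 6 of under 1 FPKM. The highest sum was that of Gpx4, the peroxidase that reduces lipid peroxides within membranes. It measured 2451, 2174, 1475 and 3275 FPKM at PN21 and 1716, 2354, 2878 and 3836 FPKM at PN98, in the order of mice given above, which is kept for all values below. That level came largely from 1 short transcript. Of the Gpx4 FPKM, 74.9% lay on a retained-intron transcript of 280 bases, and the protein-coding transcripts of Gpx4 summed to means of 492 FPKM at PN21 and 607 FPKM at PN98. The next highest members were Mgst1, Sod1, Prdx5 and Gpx1, with means over the 8 mice of 825, 591, 428 and 409 FPKM. Over the 8 mice the range of Prdx5 overlapped that of Gpx1, and the range of Mgst1 overlapped that of Sod1.

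Between PN21 and PN98, 8 of the 50 tested members were higher at PN98 at an adjusted p under 0.05 and 1 was lower (limma, Benjamini-Hochberg over 16104 genes). Of all genes tested, 5.26% passed this threshold, 2.34% as higher and 2.92% as lower. All 8 higher members were glutathione transferases, namely Gsta3, Gstt1, Mgst3, Mgst1, Mgst2, Gstm1, Gstm4 and Gstm3, and the lower member was the glutaredoxin Glrx. Among the 22 transferases tested, 8 were called, and among the 28 other members 1 was called. The values of the ages did not overlap for 11 members that lay higher and 2 that lay lower at PN98, against 6.05% and 10% of all genes tested (16.1% in either direction). At an unadjusted p under 0.05 there were 15 higher and 6 lower members, against 8.17% and 19.0% of all genes. The 11 and the 15 higher members both include Prdx6b, which passed the filter only through its PN98 values. The log2 fold change was above 0 in 31 of the 50 members and in 33.0% of all genes, and its median was 0.23 over the members and -0.21 over all genes. The number of called members depended on single mice. Higher and lower members numbered 1 and 0 without m1, 3 and 0 without m49, 2 and 1 without m138, 4 and 0 without m145, 10 and 3 without m35, 2 and 0 without m106, 1 and 0 without m114, and 2 and 0 without m125. Of all genes tested, 22.3% were called without m35, and from 1.19% (without m106) to 3.53% (without m125) in the other fits. Gsta3 was called in all 8 of these fits.

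**Figure D1:**
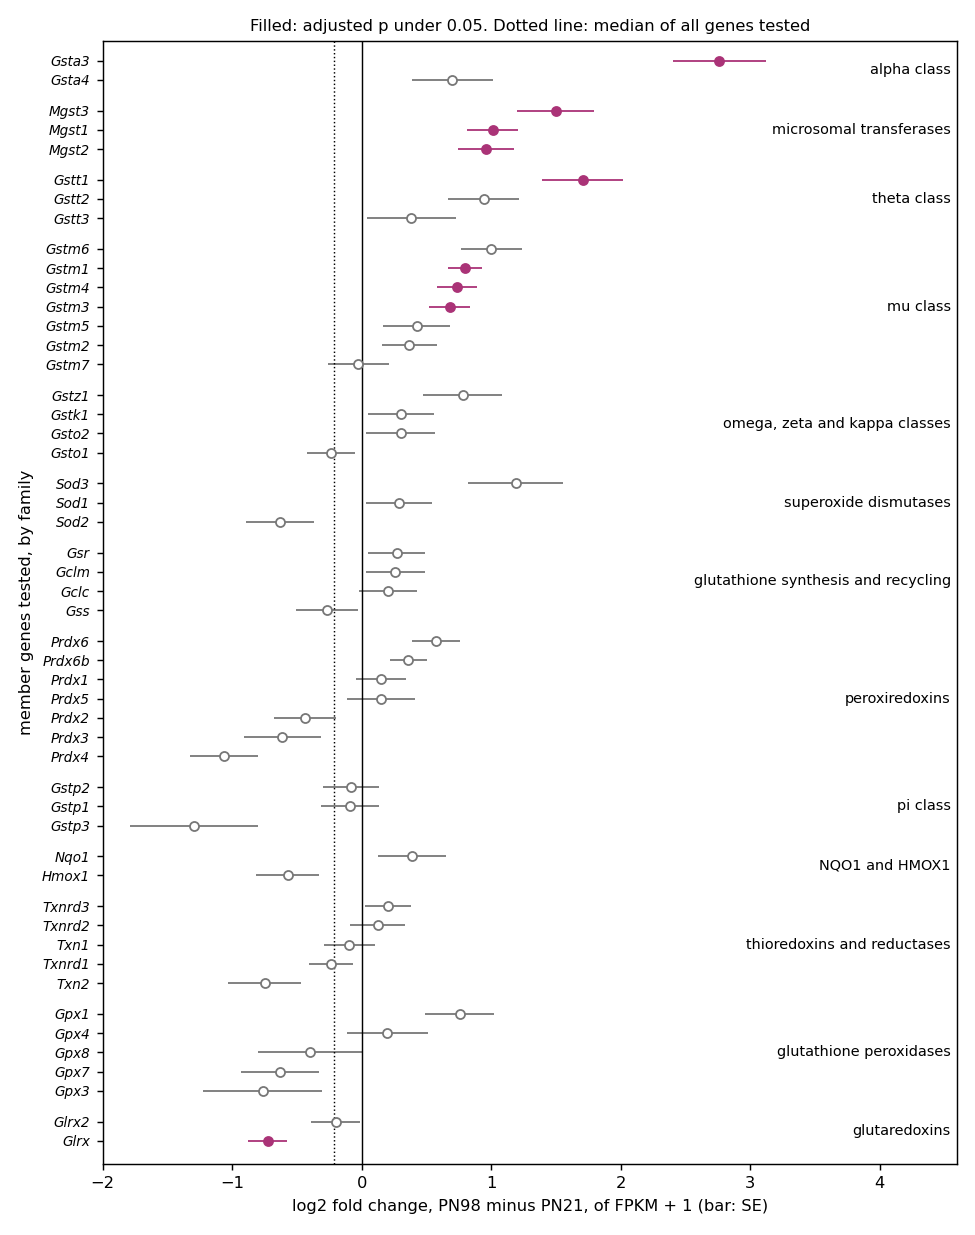
Log2 fold change of FPKM + 1, PN98 minus PN21, with its SE, for the 50 tested members, grouped by family. Filled points have an adjusted p under 0.05 and the dotted line is the median of all genes tested (-0.21). The alpha, microsomal, theta and mu transferases lie to the right, with the exception of Gstm7, the pi transferases and the glutaredoxins lie to the left, and the other groups lie on both sides of 0.

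The largest difference among the members was that of the alpha class transferase Gsta3 (chr1:21240589-21265661 in GRCm38, plus strand), known in mice for detoxifying the mould toxin aflatoxin. Gsta3 measured 14.2, 22.7, 5.98 and 10.3 FPKM at PN21 and 69.6, 90.1, 111 and 82.4 FPKM at PN98. The lowest PN98 mouse stood well above the highest PN21 mouse, m49, and Gsta3 was 6.64 times higher at PN98 (log2 fold change 2.76, SE 0.36, adjusted p = 0.00721). All 3 of its transcripts were protein-coding and each lay higher in every PN98 mouse than in every PN21 mouse. Gsta4, the other alpha class gene tested, which is known for conjugating 4-hydroxynonenal, measured 35.6, 32.9, 22.2 and 37.4 FPKM at PN21 and 29.1, 61.5, 51.6 and 77.0 FPKM at PN98 (log2 fold change 0.70, SE 0.31, adjusted p = 0.188). Its ages overlapped through m35, whose value was below 3 of the 4 PN21 mice. Gsta1 and Gsta2 stayed under 0.3 FPKM in all 8 mice and were not tested.

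All 3 microsomal transferases, membrane proteins of the endoplasmic reticulum and outer mitochondrial membrane that detoxify lipid peroxides or take part in leukotriene synthesis, were higher at PN98. Mgst1 (chr6:138140316-138156755, plus strand) measured 519, 709, 414 and 563 FPKM at PN21 and 938, 1067, 1139.8 and 1248 FPKM at PN98. Every PN98 mouse lay above every PN21 mouse, with means of 551 ± 122 at PN21 and 1098 ± 130.1 at PN98 (mean ± SD, n = 4 each) (log2 fold change 1.01, SE 0.19, adjusted p = 0.0271). Mgst3 (chr1:167371966-167393841, minus strand) measured 47.2, 56.3, 31.6 and 83.9 FPKM at PN21 and 144.7, 113.7, 169.8 and 169 FPKM at PN98 (log2 fold change 1.497, SE 0.30, adjusted p = 0.0286). Mgst2 (chr3:51660360-51682677, plus strand) measured 67.7, 109, 89.9 and 109.9 FPKM at PN21 and 148, 197, 164 and 223 FPKM at PN98 (log2 fold change 0.96, SE 0.21, adjusted p = 0.0423). For neither gene did the ages overlap. The closest mice were m145 at PN21 and m106 at PN98 for Mgst3, and m145 and m35 for Mgst2. Of the Mgst2 FPKM, 53.4% lay on protein-coding transcripts, and on these alone Mgst2 was 1.72 times higher at PN98, again without overlap. As a group the 3 genes summed to 536 to 874 FPKM at PN21 and 1231 to 1641 FPKM at PN98.

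The promoters of Gsta3 and Mgst1 are shown because both genes were called and both windows hold the core of the antioxidant response element. The core was searched as TGACNNNGC on both strands (GCNNNGTCA on the other) in the 300 bases from 250 before to 50 after each RefSeq start site (GRCm38.p6). Capitals mark the match, and each sequence reads 5′ to 3′ along the gene. The Gsta3 window is chr1:21240335-21240634 and the Mgst1 window chr6:138140277-138140576, both on the plus strand. The matches begin 121 and 56 bases before the start site.
Gsta3: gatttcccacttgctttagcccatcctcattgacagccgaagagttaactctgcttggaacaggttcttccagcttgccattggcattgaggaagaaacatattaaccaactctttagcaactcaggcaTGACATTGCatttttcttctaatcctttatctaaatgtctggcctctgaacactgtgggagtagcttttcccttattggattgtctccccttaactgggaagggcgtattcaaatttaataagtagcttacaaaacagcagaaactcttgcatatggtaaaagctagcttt
Mgst1: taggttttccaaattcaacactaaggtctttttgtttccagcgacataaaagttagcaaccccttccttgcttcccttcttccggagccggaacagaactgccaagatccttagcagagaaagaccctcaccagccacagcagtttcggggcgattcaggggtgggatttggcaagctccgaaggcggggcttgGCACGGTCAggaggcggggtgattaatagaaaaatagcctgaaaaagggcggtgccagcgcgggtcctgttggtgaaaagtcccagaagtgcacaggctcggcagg

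The core was found for 6 further members, none of which was called. Each is shown as a window of 29 bases to allow the cores to be compared, with the match in capitals.
Gstm5: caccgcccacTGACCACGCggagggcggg
Gstm7: tctgaagaccTGACAAAGCgaagccaatc
Gclm: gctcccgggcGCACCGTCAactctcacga
Prdx1: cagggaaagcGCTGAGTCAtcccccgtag
Txnrd1: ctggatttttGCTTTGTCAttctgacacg
Sod1: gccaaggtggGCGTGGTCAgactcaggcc
These windows lie at chr3:107895802-107895830 (Gstm5, plus strand), chr3:107931725-107931753 (Gstm7, minus strand), chr3:122245413-122245441 (Gclm, plus strand), chr4:116685456-116685484 (Prdx1, plus strand), chr10:82859104-82859132 (Txnrd1, plus strand) and chr16:90220696-90220724 (Sod1, plus strand). RefSeq promoters were matched by symbol for 48 of the 56 members, which had 66 promoters. Of these 66 promoters 12.1% held the core, against 12.4% of all 32851 promoters. All 9 called members had a promoter and 2 of the 9 held the core. Gstt2, Gsta4, Sod3, Gclc, Prdx6b, Prdx6, Hmox1 and Gsr had no entry. A match is a run of letters and not a measured binding site.

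**Figure D2:**
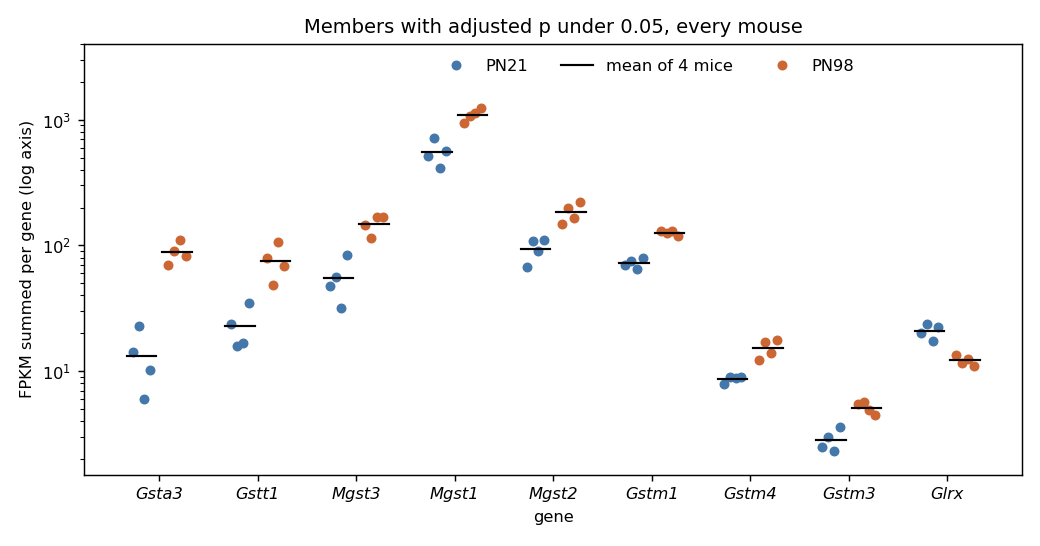
FPKM summed per gene (log axis) of the 9 members with an adjusted p under 0.05, with 1 point per mouse (blue PN21, orange PN98) and the mean of 4 mice as a line. The ages do not overlap for any of the 9 genes, and Mgst1 has the highest level at 938 to 1248 FPKM at PN98.

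In the theta class, 1 of 3 tested genes was called, as higher, against 2.34% of all genes tested. Gstt1 (chr10:75783813-75798584, minus strand), which acts on small halogenated compounds and peroxides, measured 23.8, 15.998, 16.6 and 34.6 FPKM at PN21 and 79.2, 48.8, 106.3 and 69.2 FPKM at PN98 (log2 fold change 1.71, SE 0.31, adjusted p = 0.0237). The lowest PN98 mouse, m106, lay above the highest PN21 mouse, m145. Gstt2 measured 11.3, 11.7, 13.3 and 18.5 FPKM at PN21 and 27.4, 25.5, 17.5 and 41.6 FPKM at PN98 (log2 fold change 0.94, SE 0.27, adjusted p = 0.0867), and Gstt3 measured 5.92, 5.84, 5.02 and 9.47 FPKM at PN21 and 14.7, 5.57, 12.3 and 5.33 FPKM at PN98 (log2 fold change 0.38, SE 0.35, adjusted p = 0.478). Both overlapped between the ages, Gstt2 only through m114 and m145, and Gstt3 was high at PN98 in m35 and m114 alone. The 4 theta genes lie together in 63.3 kb of chromosome 10 (chr10:75774115-75837424).

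The 7 mu class genes form a cluster of 149 kb on chromosome 3 (chr3:107895821-108044894) in the order Gstm5, Gstm7, Gstm6, Gstm3, Gstm2, Gstm1 and Gstm4. Of these, 3 were called and all 3 were higher at PN98, against 2.34% of all genes tested. Gstm1, the most abundant, measured 69.3, 75.8, 64.8 and 79.8 FPKM at PN21 and 131, 126, 130.2 and 118 FPKM at PN98 (log2 fold change 0.80, SE 0.13, adjusted p = 0.0184). Its mice varied little within an age, with means of 72.4 ± 6.66 at PN21 and 126 ± 5.92 at PN98 (mean ± SD, n = 4 each). Gstm4 measured 7.87, 9.01, 8.79 and 9.06 FPKM at PN21 and 12.3, 17.0, 14.0 and 17.7 FPKM at PN98 (log2 fold change 0.74, SE 0.16, adjusted p = 0.0381), and Gstm3 measured 2.49, 3.01, 2.33 and 3.58 FPKM at PN21 and 5.47, 5.74, 4.88 and 4.47 FPKM at PN98 (log2 fold change 0.68, SE 0.16, adjusted p = 0.0488). Gstm6 did not overlap between the ages either but missed the threshold. It measured 1.61, 2.71, 1.24 and 1.73 FPKM at PN21 and 2.79, 5.38, 5.23 and 5.28 FPKM at PN98 (log2 fold change 1.001, SE 0.24, adjusted p = 0.0501). The other mu genes overlapped, with log2 fold changes of 0.42 for Gstm5, 0.37 for Gstm2 and -0.03 for Gstm7 (adjusted p = 0.311, 0.285 and 0.955), and the value of Gstm7 lay above 0 when libraries were rescaled. The leading transcripts of Gstm1 and Gstm3 shared a run of 112 identical bases, and those of Gstm3 and Gstm6 a slightly longer one. At most 2.47% of the 100-base windows of these transcripts were shared.

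The pi class measured 105.9, 101, 71.2 and 148 FPKM at PN21 and 88.5, 87.9, 108 and 104 FPKM at PN98 for Gstp1, its most abundant gene, with a log2 fold change of -0.09 (SE 0.23, adjusted p = 0.818) that lay above 0 under both rescalings. Gstp2 lay at 48.2 to 96.1 FPKM at PN21 and 57.1 to 71.8 FPKM at PN98 and kept close to Gstp1, at a ratio of Gstp1 to Gstp2 of 1.42 to 1.56 over the 8 mice. The 2 genes share 52.8% of the 100-base windows of Gstp1 and a longest identical run of 369 bases, so their separate levels are uncertain. Gstp3, from the same 24.2 kb of chromosome 19, measured 7.64, 10.9, 15.2 and 9.93 FPKM at PN21 and 12.3, 2.64, 1.36 and 3.44 FPKM at PN98 (log2 fold change -1.29, SE 0.49, adjusted p = 0.150). Among the PN98 mice m35 alone was at the PN21 level. Without m35 Gstp3 was lower at PN98 at an adjusted p of 0.0116, in a fit that called 22.3% of all genes. Among the remaining classes, Gstz1, an enzyme of tyrosine breakdown, was the most abundant and measured 199, 298, 119 and 161 FPKM at PN21 and 286, 257, 452 and 298 FPKM at PN98 (log2 fold change 0.78, SE 0.31, adjusted p = 0.155). Gsto1 lay at 55.2 to 80.3 FPKM at PN21 and 48.7 to 68.8 FPKM at PN98, Gsto2 at 0.869 to 2.31 FPKM at PN21 and 1.38 to 3.35 FPKM at PN98 and the mitochondrial Gstk1 at 29.0 to 63.5 FPKM at PN21 and 47.7 to 68.7 FPKM at PN98, with adjusted p of 0.418, 0.467 and 0.453. Summed over all 25 transferase genes the level was 1070.3 to 1739 FPKM at PN21 and 2237 to 2790.2 FPKM at PN98, without overlap, and 1.76 times higher at PN98.

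The summed mature adipocyte markers were also higher at PN98, at 25277 FPKM or less at PN21 and 36121 FPKM or more at PN98. Most of this sum was Fabp4, with means of 17129 FPKM at PN21 and 32724 FPKM at PN98. Retn and Plin1 overlapped between the ages (limma, adjusted p = 0.579 and 0.297), and the other markers lay higher in every PN98 mouse. Of the 7 markers 2 were called, both higher (Adipoq, log2 fold change 1.45, and Cidec, 2.16). The 4 skeletal muscle markers also lay higher in every PN98 mouse, and 1 was called. The part of either in the transferase values was not tested.

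None of the 3 superoxide dismutases was called, and they did not share a direction. The cytosolic Sod1 measured 503, 632, 335 and 688 FPKM at PN21 and 532, 586, 646 and 808 FPKM at PN98 (log2 fold change 0.29, SE 0.26, adjusted p = 0.473). The mitochondrial Sod2 measured 85.4, 99.7, 58.3 and 78.6 FPKM at PN21 and 32.4, 57.0, 53.9 and 66.9 FPKM at PN98 (log2 fold change -0.63, SE 0.26, adjusted p = 0.172), with m35 as the lowest of all 8 mice. The secreted Sod3 measured 68.7, 44.4, 39.8 and 52.7 FPKM at PN21 and 163, 81.2, 199.7 and 68.4 FPKM at PN98 (log2 fold change 1.19, SE 0.37, adjusted p = 0.0990). Here m35 and m114 held the most, m106 stood between them and the PN21 mice, and m125 was at the level of the PN21 mouse m1. No glutathione peroxidase passed the threshold either. The cytosolic Gpx1 measured 281, 228, 252 and 477 FPKM at PN21 and 585, 434, 603 and 413 FPKM at PN98 (log2 fold change 0.76, SE 0.26, adjusted p = 0.127), where only m145 at PN21 reached the PN98 values. Gpx4 had a log2 fold change of 0.20 (SE 0.31, adjusted p = 0.697). The plasma peroxidase Gpx3 measured 321, 240.4, 239 and 572 FPKM at PN21 and 119.8, 153, 151 and 456 FPKM at PN98 (log2 fold change -0.76, SE 0.46, adjusted p = 0.303). At PN98 3 mice held at most 153 FPKM and m125 held 456 FPKM. Gpx7 and Gpx8, which belong to the endoplasmic reticulum, lay at 17.7 to 44.0 FPKM at PN21 and 14.1 to 24.6 FPKM at PN98 and at 67.7 to 116 FPKM at PN21 and 33.7 to 126 FPKM at PN98, respectively (adjusted p = 0.209 and 0.532).

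Of the 7 peroxiredoxins none was called. The ages did not overlap for 3, Prdx4, Prdx6 and Prdx6b, against 16.1% of all genes tested. Of these 3, Prdx6b passed the filter only through its PN98 values. Prdx4, the peroxiredoxin of the endoplasmic reticulum, measured 44.7, 41.3, 40.1 and 60.3 FPKM at PN21 and 29.6, 15.8, 28.5 and 16.04 FPKM at PN98 (log2 fold change -1.06, SE 0.26, adjusted p = 0.0570). Every PN98 mouse lay below every PN21 mouse. Without m35 Prdx4 was lower at PN98 at an adjusted p of 0.0217, in a fit that called 22.3% of all genes. Prdx6, which reduces phospholipid peroxides, measured 118, 133, 92.3 and 132 FPKM at PN21 and 164, 152, 215 and 179 FPKM at PN98 (log2 fold change 0.58, SE 0.18, adjusted p = 0.104) and lay higher in every PN98 mouse. Its low-level relative Prdx6b was under 1 FPKM in all 4 PN21 mice and passed the filter through its PN98 values (0.959 to 1.65 FPKM). The most abundant peroxiredoxin, Prdx5, measured 426, 396, 258 and 564 FPKM at PN21 and 394, 347, 538 and 502 FPKM at PN98 (log2 fold change 0.15, SE 0.26, adjusted p = 0.735). The mitochondrial Prdx3 measured 144, 214, 116 and 130.1 FPKM at PN21 and 63.5, 119.5, 81.1 and 137 FPKM at PN98 (log2 fold change -0.61, SE 0.29, adjusted p = 0.214). Prdx1 lay at 159 to 237 FPKM at PN21 and 176 to 238 FPKM at PN98, with an adjusted p of 0.627. Prdx2, a major protein of red blood cells, lay at 199 to 412 FPKM at PN21 and 185 to 246 FPKM at PN98 (log2 fold change -0.44, SE 0.24, adjusted p = 0.262). All 5 erythroid markers were lower at PN98 (log2 fold changes -1.31 to -1.66), and their part in the Prdx2 values was not tested.

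Glrx, the cytosolic glutaredoxin that removes glutathione from protein cysteines, was the member that was lower at PN98. It measured 19.96, 23.6, 17.2 and 22.6 FPKM at PN21 and 13.5, 11.7, 12.5 and 11.05 FPKM at PN98 from 1 transcript (chr13:75839868-75850154, plus strand; log2 fold change -0.73, SE 0.15, adjusted p = 0.0357). The highest PN98 mouse, m35, lay below the lowest PN21 mouse, m138. Glrx lost the threshold when libraries were rescaled, with adjusted p of 0.0963 under median of ratios scaling and 0.105 under scaling to nuclear genes. Glrx2, its mitochondrial relative, measured 43.0, 58.3, 39.5 and 57.7 FPKM at PN21 and 35.6, 41.9, 43.7 and 49.5 FPKM at PN98 (log2 fold change -0.20, SE 0.19, adjusted p = 0.495), and its log2 fold change lay just above 0 under both rescalings. Among thioredoxins the mitochondrial Txn2 was the most abundant and measured 237, 327, 195 and 402 FPKM at PN21 and 113.7, 172, 186 and 209 FPKM at PN98 (log2 fold change -0.75, SE 0.28, adjusted p = 0.145). Only m138 at PN21 and m125 at PN98 overlapped. The cytosolic Txn1 lay at 102 to 182 FPKM at PN21 and 108 to 131 FPKM at PN98, and the reductases Txnrd1, Txnrd2 and Txnrd3 had log2 fold changes of -0.24, 0.12 and 0.20 with adjusted p of 0.381, 0.724 and 0.462. Txn1 lay above 0 under both rescalings and Txnrd1 under scaling to nuclear genes.

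None of the 4 genes that make and recycle glutathione was called. Gclm, the modifier subunit of glutamate-cysteine ligase, measured 36.6, 36.6, 37.0 and 20.4 FPKM at PN21 and 33.1, 45.6, 40.0 and 35.1 FPKM at PN98 (log2 fold change 0.26, SE 0.23, adjusted p = 0.469). A pseudogene inside the Gclm locus, Gm6061, has its own transcript at 191 to 225 FPKM, which was not counted for Gclm. The catalytic subunit Gclc lay at 4.82 to 9.99 FPKM at PN21 and 6.73 to 10.3 FPKM at PN98, glutathione synthetase (Gss) at 16.05 to 32.2 FPKM at PN21 and 15.3 to 22.9 FPKM at PN98 and glutathione reductase (Gsr) at 14.7 to 28.4 FPKM at PN21 and 23.9 to 31.1 FPKM at PN98. Their log2 fold changes were 0.20, -0.27 and 0.27, with SE of 0.22, 0.24 and 0.22 and adjusted p of 0.568, 0.470 and 0.443. Heme oxygenase 1 (Hmox1), which breaks down heme, measured 42.5, 24.2, 37.3 and 33.4 FPKM at PN21 and 28.3, 26.0, 21.5 and 15.6 FPKM at PN98 (log2 fold change -0.57, SE 0.24, adjusted p = 0.176). The quinone reductase Nqo1 stayed low, at 1.04 to 2.42 FPKM at PN21 and 1.14 to 3.13 FPKM at PN98 (adjusted p = 0.350). Gpx2, Gpx5, Gpx6 and Gstt4, together with Gsta1 and Gsta2, had a mean under 1 FPKM and were not tested, and Gpx6 was listed at 0 in all 8 mice.

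Each member was assigned to a single location. The microsomal transferases, among them the called Mgst1, were counted with the secreted or endoplasmic reticulum members and not as mitochondrial. By that assignment none of the 7 members listed as mitochondrial was called, against 5.26% of all genes tested. Sod2, Prdx3, Txn2 and Glrx2 had log2 fold changes of -0.63, -0.61, -0.75 and -0.20, and Prdx5, Txnrd2 and Gstk1 of 0.15, 0.12 and 0.31. Of all genes tested, 33.0% had a log2 fold change above 0. The values of Sod2, Prdx3 and Txn2 stayed below 0 under all alternatives run. The brown adipocyte markers Ucp1, Cox7a1 and Cox8b had log2 fold changes of -2.81, -2.48 and -1.34 (adjusted p = 0.149, 0.0912 and 0.1999). The other 3 brown markers, Cidea, Ppargc1a and Elovl3, had -0.67, -0.51 and 1.81 (adjusted p = 0.619, 0.210 and 0.351), so Elovl3 lay on the other side of 0. None of the 6 was called, and their part in the mitochondrial members was not tested.

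The 4 PN98 mice differed from each other in several members. Ucp1, the uncoupling protein of brown and beige adipocytes, measured 7.41 FPKM in m35, 56.3 in m114, 278 in m106 and 356 in m125. This order was taken up after the values had been seen. It was also the order of 10 of the 50 tested members, namely Gpx3, Gpx8, Gsta4, Gstm4, Gstm5, Gsto1, Mgst2, Prdx3, Sod2 and Txn1, against 5.14% of all genes tested. The reverse order was found for Glrx, Gstm1 and Gstt3, against 18.2% of all genes. Between m35 and m125 Sod2 spanned 32.4 to 66.9 FPKM, Prdx3 63.5 to 137 FPKM and Gpx8 33.7 to 126 FPKM. Leptin (Lep), the hormone that follows fat mass, had another order, with 102 FPKM in m125, 162 in m106, 396 in m35 and 569 in m114. Gpx1, Gstm2 and Sod3 shared it, which is 3 of 50 members against 8.61% of all genes. These are 4 mice, and the orders are given as a description.

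**Figure D3:**
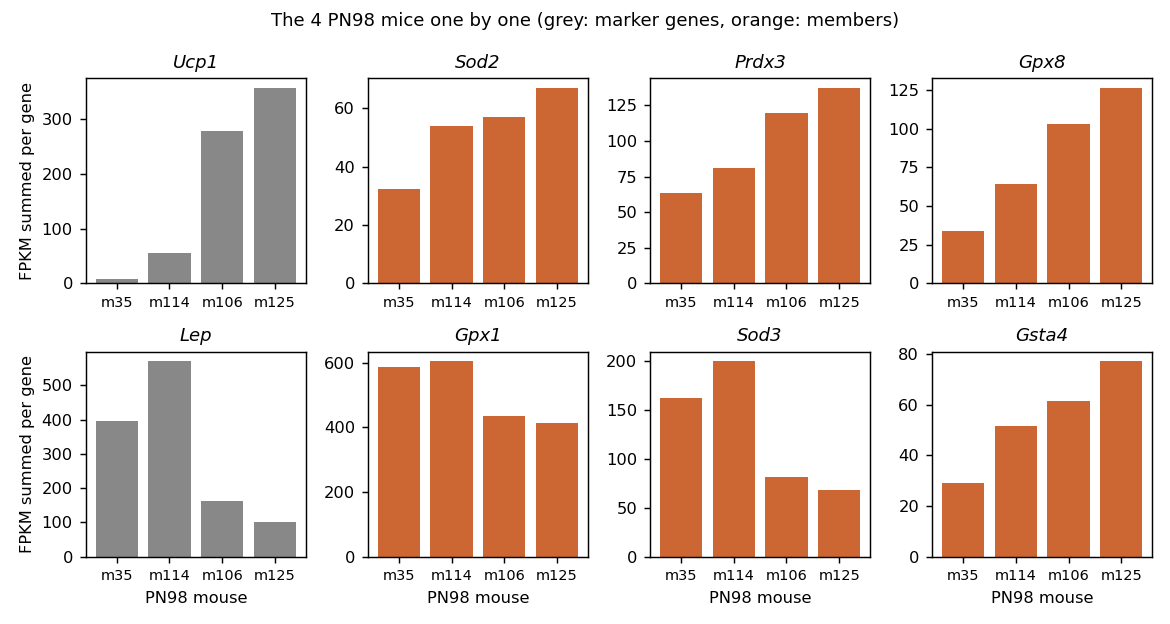
FPKM summed per gene in each of the 4 PN98 mice, which are placed in the order of their Ucp1 level. Grey bars are the marker genes Ucp1 and Lep and orange bars are members. Sod2, Prdx3, Gpx8 and Gsta4 follow the order of Ucp1, and Gpx1 and Sod3 that of Lep.

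The number of called members changed with the scale of the libraries. When libraries were scaled by the median of their gene ratios, the typical log2 fold change (median over all genes) moved from -0.21 to -0.02, and 10 members were higher and none lower. The members added were Gstm6 and Sod3, and Glrx was lost. With libraries scaled to their summed nuclear FPKM the median of all genes was 0.02, and 12 members were higher and none lower, with Gpx1, Gstm6, Gstt2 and Prdx6 added. Under both scalings the 8 higher transferases were called, and relative to the median of all genes Gsta3 stood 2.97 on FPKM as deposited and 3.01 with nuclear scaling on the log2 scale.

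**Figure D4:**
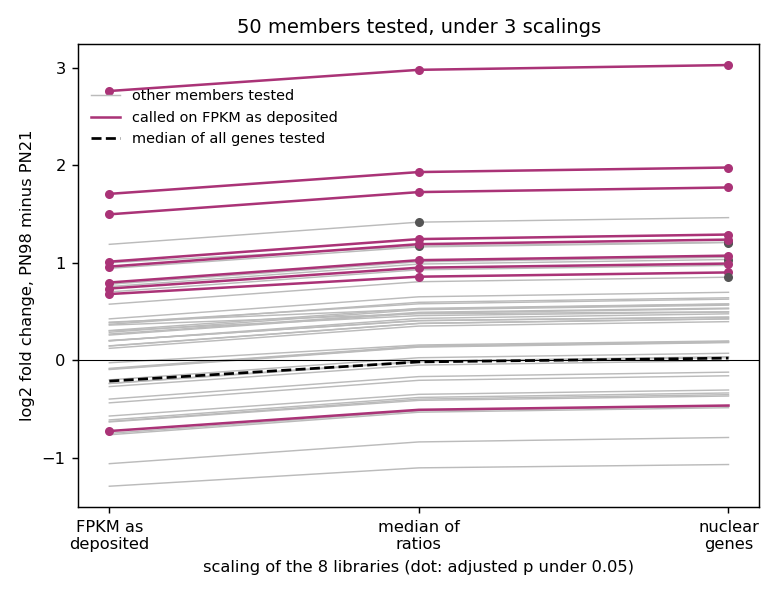
Log2 fold change, PN98 minus PN21, of the 50 tested members on deposited FPKM, after median of ratios scaling and after scaling to nuclear genes. Coloured lines are the 9 members called on FPKM as deposited, dots mark an adjusted p under 0.05 and the dashed line is the median of all genes tested. The 8 higher members keep their dots under all 3 scalings, and the lower one, Glrx, does not.

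The genes around these enzymes were read from lists of the same pathway. Of 82 tested pathway genes 7 were higher and 1 was lower at PN98, against 2.34% and 2.92% of all genes tested. Of the 7 higher genes, Chac1 passed the filter only through its PN98 values. The lower gene, Aldh1l2, passed it only through its PN21 values. Among 21 genes listed as other antioxidant proteins, 5 were higher and none lower. The list is not limited to enzymes that remove peroxides and also holds regulators such as Txnip and Sesn2. Catalase (Cat), the peroxisomal enzyme that splits hydrogen peroxide, measured 251, 218, 202 and 161 FPKM at PN21 and 375, 513, 393 and 546 FPKM at PN98 (log2 fold change 1.13, SE 0.20, adjusted p = 0.0216). Every PN98 mouse lay above every PN21 mouse. The thioredoxin-binding protein Txnip lay at 397 to 799.7 FPKM at PN21 and 1266 to 1666 FPKM at PN98 (log2 fold change 1.09, SE 0.25, adjusted p = 0.0457). Sestrin 2 (Sesn2), a stress-induced regulator of nutrient signalling, lay at 3.22 to 5.71 FPKM at PN21 and 10.5 to 15.8 FPKM at PN98 (log2 fold change 1.34, SE 0.21, adjusted p = 0.0142). The methionine sulfoxide reductase Msrb3 lay at 10.4 to 13.4 FPKM at PN21 and 19.4 to 27.3 FPKM at PN98 (log2 fold change 0.89, SE 0.16, adjusted p = 0.0223), and Fam213a, a peroxiredoxin-like protein, at 172 to 268 FPKM at PN21 and 351 to 665 FPKM at PN98 (log2 fold change 1.19, SE 0.25, adjusted p = 0.0354). None of these overlapped between the ages.

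Among the 9 genes of NRF2 control, Sqstm1, the autophagy receptor that also binds KEAP1, was higher and lay at 212 to 267 FPKM at PN21 and 371 to 494 FPKM at PN98 (log2 fold change 0.81, SE 0.16, adjusted p = 0.0281). Nfe2l2, which encodes NRF2, measured 29.0, 34.9, 32.2 and 32.8 FPKM at PN21 and 30.1, 26.5, 24.0 and 25.6 FPKM at PN98 (log2 fold change -0.27, SE 0.14, adjusted p = 0.232), and its inhibitor Keap1 measured 17.2, 14.7, 16.8 and 17.2 FPKM at PN21 and 15.7, 12.4, 15.7 and 15.9 FPKM at PN98 (log2 fold change -0.14, SE 0.14, adjusted p = 0.550). Transcript levels do not show the activity of NRF2, which is set largely by protein turnover. Among 13 genes of NADPH supply, Aldh1l2, a mitochondrial folate enzyme, was lower and measured 3.40, 1.82, 2.09 and 3.14 FPKM at PN21 and 0.444, 0.254, 0.153 and 0.173 FPKM at PN98 (log2 fold change -1.504, SE 0.19, adjusted p = 0.00692). Its mean at PN98 was under 1 FPKM. Glucose-6-phosphate dehydrogenase (G6pdx) lay at 44.9 to 91.6 FPKM at PN21 and 64.6 to 119 FPKM at PN98 (log2 fold change 0.61, SE 0.30, adjusted p = 0.216), and the mitochondrial transhydrogenase Nnt at 3.14 to 7.56 FPKM at PN21 and 4.00 to 5.44 FPKM at PN98 (log2 fold change 0.01, SE 0.24, adjusted p = 0.978). Among 18 genes of cysteine supply and glutathione turnover, Chac1, which degrades glutathione, was higher and measured 0.438, 0.338, 0.447 and 0.696 FPKM at PN21 and 6.17, 5.69, 2.18 and 8.63 FPKM at PN98 (log2 fold change 2.07, SE 0.32, adjusted p = 0.0139). Its 4 PN21 values were under 1 FPKM. None of 10 genes on a selenoprotein list was called. It holds genes of selenoprotein synthesis, on which several glutathione peroxidases and the thioredoxin reductases depend, and the selenoproteins Selenop and Selenow. None of 11 genes on a list of other glutathione-dependent and related proteins, which includes translation genes such as Eef1g, was called. At an unadjusted p under 0.05 (limma) the first list had 2 higher genes, Selenop and Selenow, and 2 lower, Pstk and Secisbp2. The second had 0 higher and 3 lower, Clic1, Eef1g and Ptges2. Of all genes tested, 8.17% were higher and 19.0% lower at that threshold.

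Single transcripts were also compared, on log2(FPKM) of transcripts above 0 in all 8 mice and with a mean above 2 FPKM at PN21 or PN98. Of 99 member transcripts from 48 genes, 2 passed an adjusted p of 0.05, against 1.35% of all 23168 transcripts tested. At an unadjusted p under 0.05 there were 23 higher and 8 lower, against 21.7% of all transcripts in either direction. The called transcripts were the leading transcript of Gsta3 (5.66 to 13.0 FPKM at PN21 and 31.1 to 49.9 FPKM at PN98, log2 fold change 2.295, adjusted p = 0.0237) and a transcript of Mgst1 of 559 bases (221 to 323 FPKM at PN21 and 499.5 to 604 FPKM at PN98, log2 fold change 1.10, adjusted p = 0.0438). Within Gstm1 the leading transcript, with 86.5% of the gene's FPKM, had a log2 fold change of 0.89 (adjusted p = 0.0540), and a shorter one of 883 bases lay at 9.51 to 13.4 FPKM at PN21 and 5.32 to 19.0 FPKM at PN98. A retained-intron transcript held 62.7% of the Prdx2 FPKM and a transcript without a coding frame 59.4% of the Prdx6 FPKM, so for these genes, as for Gpx4, the gene sum and the coding level differ.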

How the data were processed

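Poly(A)+ RNA of ING WAT from 4 PN21 and 4 PN98 mice was sequenced, and the authors mapped the reads with STAR 2.3.0 to mm10 (GRCm38) and deposited Cufflinks 2.1.1 FPKM values per transcript, with an average, a standard deviation and a log10 score beside them. Many values had lost their decimal mark. These were restored so that the deposited standard deviation and average, which rest on 10 values of which 8 are listed, were met. A single reading was found for 40342 of 40426 such transcripts, and the 84 others, none of them from a member, were left out. All 5016 restored transcripts that also stand in the deposited table of the comparison equalled it. That table's fold changes and p-values were not used. The library kit marks strand, but whether Cufflinks used it is not given in the sources used here.

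Transcripts were assigned to genes with GENCODE vM21, or by the deposited gene name where it is single, and FPKM summed per gene. Log2(FPKM + 1) of genes with a mean of at least 1 FPKM was compared as PN98 minus PN21 with limma 3.58.1 in R 4.3.3 (lmFit and eBayes), with Benjamini-Hochberg adjustment over all genes, so fold changes of low genes are understated. The code was tested on simulated data. Called members and the most abundant member of each family are given with all mice, and called pathway genes are named together with Nfe2l2, Keap1, Cat, G6pdx and Nnt. Further members shown by mouse, and the short promoter windows of members that were not called, were chosen after their values were seen. The members and gene lists were chosen with earlier results of these data known. The labels do not say whether mice shared a litter, and the methods describe housing of weaned males with a littermate. The p-values weigh the age difference against the spread within an age and treat the mice as independent. Alternatives were other pseudocounts (0.1 and 0.5), filters, scalings and weights, and leaving out each mouse.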

Additional observations from a re-analysis of the deposited data

Results flagged for a closer look

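In 4 of the 100 groups of 4 mice tested over the members, 1 mouse stood far from the other 3 by Dixon's test, which chance does in about 1 of 20 groups. At PN98, Gpx3 measured 456 FPKM in m125 against 119.8 to 153 FPKM in the other mice. At PN21, Gclm measured 20.4 FPKM in m145 against 36.6 to 37.0 FPKM. At PN98, Gss measured 22.9 FPKM in m114 against 15.3 to 16.05 FPKM, and Gstm6 measured 2.79 FPKM in m35 against 5.23 to 5.38 FPKM.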

How the results depend on the processing

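With FPKM as deposited, 377 higher and 470 lower genes, 8 higher and 1 lower members and 7 higher and 1 lower pathway genes were called. Without each mouse in turn the ranges were 97 to 691 higher and 94 to 2903 lower genes, 1 to 10 higher and 0 to 3 lower members, and 0 to 8 higher and 1 to 7 lower pathway genes, with the highest lower counts without m35, and the median log2 fold change of the members ranged from 0.13 to 0.30. Median of ratios scaling gave 759 higher and 449 lower genes, 10 higher and 0 lower members and 11 higher and 1 lower pathway genes. Scaling to nuclear genes gave 570 higher and 258 lower genes, 12 higher and 0 lower members and 9 higher and 1 lower pathway genes, and a member median of 0.49. With arrayWeights there were 1151 higher and 3496 lower genes, 12 higher and 3 lower members and 12 higher and 9 lower pathway genes. A mean of at least 5 FPKM left 277 higher and 267 lower genes and 6 higher and 0 lower pathway genes, and the lower pathway gene Aldh1l2 did not reach that mean. Limma with trend and robust gave 9 higher and 2 lower members, and sums over transcripts passing the study's filter 9 higher and 2 lower. When only transcripts with intact decimals were summed, 388 genes, among them the members Gpx4 and Txn2, reached a mean of at least 1 FPKM. Of these, 0 higher and 0 lower genes, 0 higher and 0 lower members and 0 higher and 0 lower pathway genes were called (limma), and the median of the 2 members was -0.0467. The sum over every transcript that lists a gene was added after seeing the data.

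For transcripts, 166 higher and 147 lower were called in all and 2 higher and 0 lower among members. Mean FPKM above 2 at both ages gave 72 higher and 35 lower transcripts and 1 higher and 0 lower member transcripts. Median of ratios scaling gave 346 higher and 170 lower transcripts and 4 higher and 0 lower member transcripts. Scaling to nuclear genes gave 252 higher and 95 lower transcripts and 5 higher and 0 lower member transcripts. Log2(FPKM + 1) gave 325 higher and 374 lower transcripts and 7 higher and 0 lower member transcripts. Without each mouse in turn the ranges were 13 to 346 higher and 30 to 1407 lower transcripts, and 0 to 5 higher and 0 to 2 lower member transcripts.

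The sign of 10 members that were not called turned in 24 of 894 log2 fold changes under the alternatives, and that of none of the 9 called members did. The turned values were found with median of ratios scaling (Gstm7 0.157, Glrx2 0.0266, Txn1 0.135, Gstp2 0.146, Gstp1 0.140), scaling to nuclear genes (Gstm7 0.199, Glrx2 0.0724, Txnrd1 0.0272, Gsto1 0.0369, Txn1 0.182, Gstp2 0.192, Gstp1 0.187), arrayWeights (Gstm7 0.137, Prdx5 -0.0147) and every transcript that lists the gene (Gsto2 -0.241). Without each mouse in turn the values ranged from -0.191 to 0.0829 for Gstm7, -0.0583 to 0.316 for Prdx5, -0.00520 to 0.395 for Gpx4, -0.202 to 0.0763 for Txn1, -0.246 to 0.0807 for Gstp2, -0.264 to 0.0833 for Gstp1. The cause of these differences was not tested. No paired analysis was possible because the mouse numbers of PN21 and PN98 differ. Read counts were not given in the deposited tables. Library depth is therefore unknown, no counting interval can be stated, and 4 mice per age limit the precision.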
